A study of Mus musculus with 4 samples.

Results

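The baseline transcriptome of the mouse lens epithelium was described from the 2 control arrays of a series of 4, the other 2 having been made from UVB-irradiated lens epithelium. The log2 signals of the 2 controls were averaged for each of 28944 probe sets. A gene was ranked where a probe set carried its symbol alone, and a gene with several such probe sets was given by the one of highest mean. This left 19938 genes, and the 300 of highest mean signal, 1.5% of them, are described as the top 300, together with lens genes and marker genes of other eye tissues. The members were chosen by level in the controls alone, so a high level of a top gene is a description and carries no test.

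The control epithelia came from 8-week-old male C57BL/6 mice, an inbred strain, whose left eye was shielded with aluminium foil while the right eye was exposed to UVB at 30 mJ/cm2. Lenses were taken 24 h later by a posterior approach, and the epithelium was separated from neighbouring tissues, lens cortex and nucleus. Each of 2 independent experiments gave 1 control array, named control 1 and control 2. The methods name 3 mice per experiment, but do not say whether an array held the pooled RNA of several mice, so the spread between the 2 controls may be in part technical.

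The lens epithelium is a single layer of cells under the anterior lens capsule. Its cells divide near the equator, withdraw from the cell cycle and elongate into fiber cells, which fill with crystallins and lose their organelles. Alpha crystallins are small heat shock proteins made in both epithelium and fibers, while beta and gamma crystallins are known chiefly as structural proteins of fibers. The adult tissue has no blood vessels, lives on glucose from the aqueous humour and makes the basement membrane of the capsule.

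All 5 genes given as markers of the lens epithelium were high on both controls. In the order control 1, control 2, in which all pairs of values are given, the log2 signal of Cryaa, alpha A crystallin, was 13.77 and 13.78, and that of Cryab, alpha B crystallin, was 13.05 and 13.05. Pax6, a transcription factor needed for eye formation, had log2 signals of 11.59 and 11.56. Foxe3, a forkhead factor of the lens epithelium, had log2 signals of 11.27 and 11.28. Cdh1, the epithelial adhesion protein E-cadherin, had log2 signals of 11.05 and 10.99. Cryaa ranked first of all genes and Cryab 45th. Pax6 at rank 408, Foxe3 at 578 and Cdh1 at 802 lay outside the top 300. The labelled tissue thus carried its markers, and it also carried high signals of fiber genes, given with the tissue lists.

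The promoters of the 5 lens genes of highest signal with a RefSeq entry are printed because they all belong to crystallins, the group that fills the head of the ranking. Each run holds the 250 bases before the gene's start in RefSeq (GRCm38.p6), 5′ to 3′ on the gene's strand. The windows are chr17:31677681-31677930 (plus strand) for Cryaa, chr16:22811411-22811660 (minus) for Crygs, chr1:65063441-65063690 (minus) for Crygd, chr1:74893144-74893393 (minus) for Cryba2 and chr5:112255570-112255819 (plus) for Crybb1. Capitals mark TATAAA, known as a core promoter motif, on the gene's strand, and TGCTGA, an arm of the palindromic element to which Maf proteins bind, on either strand (TCAGCA where it is on the opposite strand).
Cryaa: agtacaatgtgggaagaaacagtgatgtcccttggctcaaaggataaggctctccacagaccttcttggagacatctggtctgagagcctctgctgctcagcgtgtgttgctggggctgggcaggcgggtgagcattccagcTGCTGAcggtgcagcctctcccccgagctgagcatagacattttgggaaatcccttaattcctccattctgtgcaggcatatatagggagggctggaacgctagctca
Crygs: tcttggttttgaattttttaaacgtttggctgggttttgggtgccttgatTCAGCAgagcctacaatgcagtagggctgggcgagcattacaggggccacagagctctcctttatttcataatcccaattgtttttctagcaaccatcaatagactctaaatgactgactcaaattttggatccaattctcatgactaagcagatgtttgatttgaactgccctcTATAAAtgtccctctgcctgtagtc
Crygd: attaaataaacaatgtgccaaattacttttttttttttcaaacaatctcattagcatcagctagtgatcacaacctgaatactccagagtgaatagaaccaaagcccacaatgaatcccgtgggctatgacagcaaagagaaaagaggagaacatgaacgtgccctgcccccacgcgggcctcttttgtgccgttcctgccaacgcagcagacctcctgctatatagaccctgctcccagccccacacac
Cryba2: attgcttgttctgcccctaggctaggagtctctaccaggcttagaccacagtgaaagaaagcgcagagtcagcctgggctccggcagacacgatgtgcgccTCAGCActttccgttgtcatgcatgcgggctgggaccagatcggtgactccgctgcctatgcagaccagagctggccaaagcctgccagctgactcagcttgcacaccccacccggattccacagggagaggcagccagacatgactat
Crybb1: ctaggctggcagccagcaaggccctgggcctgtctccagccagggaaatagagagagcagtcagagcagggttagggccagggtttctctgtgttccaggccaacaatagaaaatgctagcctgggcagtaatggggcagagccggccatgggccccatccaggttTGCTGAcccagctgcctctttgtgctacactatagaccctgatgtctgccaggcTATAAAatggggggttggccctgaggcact

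The window of Crybb1 held TATAAA 30 bases before the start and TGCTGA 84 bases before it, counted to the first base of each match. Crygs held TATAAA 25 bases and TGCTGA 200 bases before the start, Cryaa held TGCTGA at 108 bases and Cryba2 at 149 bases, and Crygd held neither run of letters. For the shares that follow, both motifs were counted on either strand, so a TATAAA counted there may lie in reverse orientation to the gene. Of the 13 crystallins in the top 300, 12 had a promoter entry, and 9 of them (75%) held TGCTGA and 3 (25%) held TATAAA. Of the 15614 ranked genes with an entry, 14.5% held TGCTGA and 11.2% held TATAAA. Of the 236 top genes with an entry, 18.6% held TGCTGA and 11.9% TATAAA. Crystallin promoters had a median of 4 CG dinucleotides, those of the 23 ribosomal protein genes with an entry 19, and those of all ranked genes 11. Several crystallin genes are copies of one another, so their promoters are not independent of each other, and a match of letters is a description and not a binding site.

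The signals of different probe sets depend on their own probes as well as on the RNA, so the ranking is one of array signals and not of mRNA amounts. Signals at the head of the ranking lay close together. The top 300 spanned 11.80 to 13.78 with a median of 12.32, where the median of all ranked genes was 7.46 and their 95th percentile 10.82. The highest signal of any probe set was 13.94, so the head of the ranking lay close to the upper end of the values. Ranks near the limit were decided by small steps: Gas5, Cdc42 and Rpl37a, the last 3 of the top 300, and Trir, at rank 301, had the same mean of 11.80, and the tie was resolved by probe set number. Cox5b and Tmed7 followed at 11.795. Another 251 probe sets with several symbols and 104 without a symbol were at or above 11.80 and were not ranked.

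**Figure D1:**
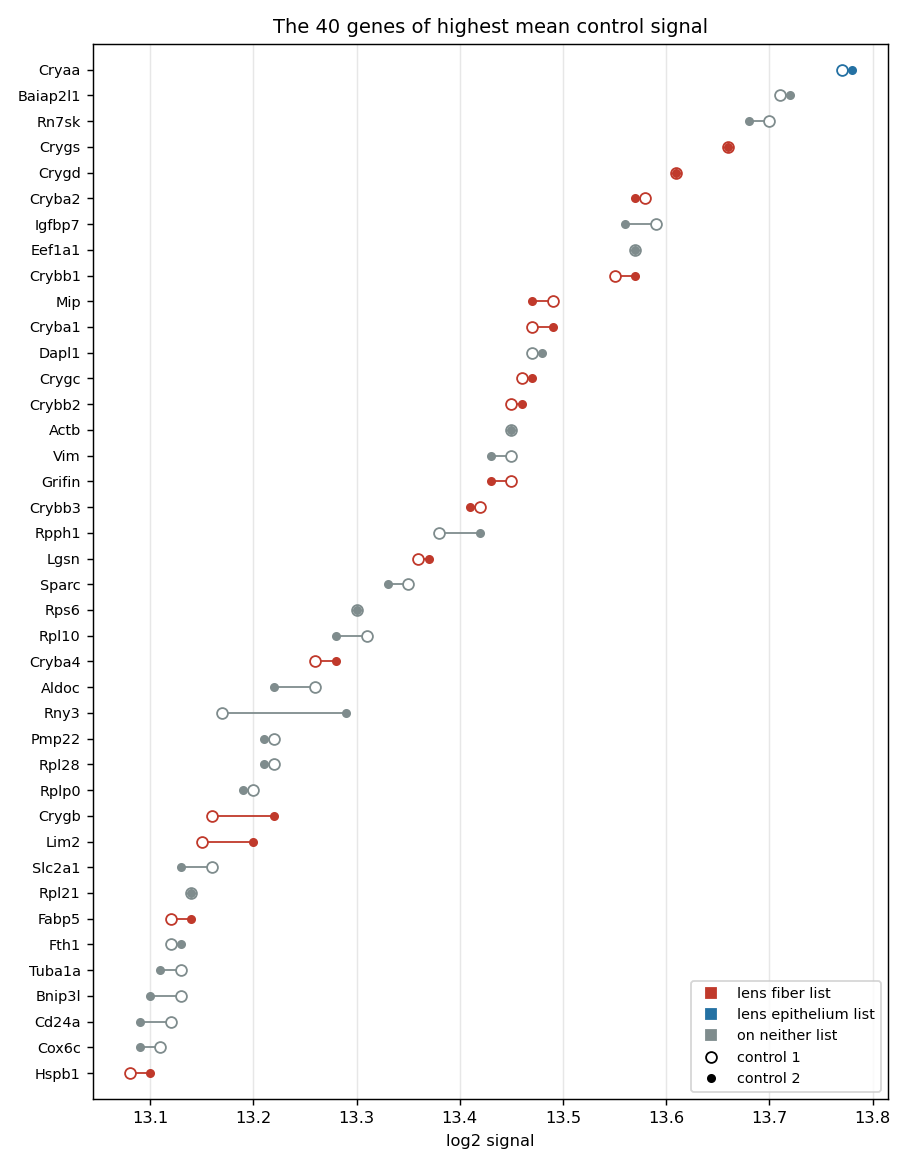
Log2 signal (x axis) of the 40 genes of highest mean, in control 1 (open circles) and control 2 (filled circles), coloured by lens list. Crystallins and other fiber genes hold most of the first 20 places, from Cryaa at 13.77 and 13.78 downward, and the pairs of values lie close together, farthest apart for Rny3 at 13.17 and 13.29.

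Crystallins led the ranking. Of the 15 crystallin genes ranked, 13 (86.7%) were in the top 300, against 1.5% of all ranked genes, and 11 of them were among the first 30. After Cryaa came Crygs, the gamma S crystallin of the adult lens, with log2 signals of 13.66 and 13.66. Crygd, a gamma crystallin of the lens nucleus, had log2 signals of 13.61 and 13.61. Among the beta crystallins, Cryba2 had log2 signals of 13.58 and 13.57. These values differed by at most 0.01 between the controls, less than the 0.04 that was the median absolute difference over all genes. Small differences were general in the top 300, where the SD of the difference was 0.036. The experiment means had also been set equal before deposit, so this closeness is not particular to crystallins.

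The other acidic beta crystallins were Cryba1, at 13.47 and 13.49, and Cryba4, at 13.26 and 13.28. The basic beta crystallins Crybb1, Crybb2 and Crybb3 had log2 signals of 13.55 and 13.57, 13.45 and 13.46, and 13.42 and 13.41. All beta crystallins measured were thus among the first 24 genes. The gamma crystallins were spread more widely. Crygc had log2 signals of 13.46 and 13.47, Crygb of 13.16 and 13.22, and Cryga, at rank 131, of 12.37 and 12.46. Crygf at rank 726 had log2 signals of 10.97 and 11.23, and Crygn at rank 1660 of 10.32 and 10.35. Gamma crystallins A to F are near copies of one another, so the signal of a single member is uncertain: a probe set shared by Crygf and Cryge, not ranked, had log2 signals of 13.29 and 13.36.

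Beside crystallins, the genes of highest signal held other proteins known from lens fibers. Mip, the water channel of fiber membranes, ranked 10 with log2 signals of 13.49 and 13.47. Grifin, a galectin-related fiber protein, had log2 signals of 13.45 and 13.43, and Lgsn, the glutamine synthetase-like protein lengsin, of 13.36 and 13.37. Lim2, a junctional membrane protein of fibers, had log2 signals of 13.15 and 13.20. Fabp5, a fatty acid binding protein, had log2 signals of 13.12 and 13.14, and Hspb1, a small heat shock protein, of 13.08 and 13.10. Of the 50 genes of highest signal, 17 were on the lens fiber list and 3 on the lens epithelium list, and 6 were ribosomal protein genes. Of the last 100 of the top 300, 3 were on the fiber list and 1 on the epithelium list.

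Several of the first 40 genes are not known as lens structural genes. Baiap2l1, an adaptor of actin and the curved plasma membrane, ranked second with log2 signals of 13.71 and 13.72, the highest of its 3 probe sets. Its rank rests on that probe set alone, and the signals of its other probe sets are not given here. Igfbp7, a secreted protein of the insulin-like growth factor binding family, had log2 signals of 13.59 and 13.56, and Dapl1, a death-associated protein-like gene, of 13.47 and 13.48. Pmp22, a membrane protein best known from myelin, had log2 signals of 13.22 and 13.21. Bnip3l, a receptor for the removal of mitochondria, had log2 signals of 13.13 and 13.10, and Cd24a, a small surface glycoprotein, of 13.12 and 13.09. Noncoding RNA genes also stood there: Rn7sk, the 7SK RNA that holds back transcription elongation, at 13.70 and 13.68, Rpph1, the RNA of RNase P, at 13.38 and 13.42, and Rny3, a Y RNA, at 13.17 and 13.29.

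The rest of the top 300 was read by function groups formed from patterns of gene symbols, so a gene whose symbol no pattern matched has no group. Ribosomal proteins gave 30 of their 64 ranked genes (46.9%), led by Rps6 at 13.30 and 13.30, Rpl10 at 13.31 and 13.28, Rpl28 at 13.22 and 13.21 and Rplp0 at 13.20 and 13.19. These genes have many pseudogenes, and 169 unranked probe sets at or above 11.80 named a ribosomal protein among several symbols. Translation factors gave 9 of 66, led by the elongation factors Eef1a1, at 13.57 and 13.57, and Eef2, at 13.09 and 13.08. Ribosomal proteins were thus the most numerous named group of the top 300.

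Energy genes were frequent. Glycolysis and lactate genes gave 9 of 17 (52.9%), led by the aldolase Aldoc, at 13.26 and 13.22, and the glucose transporter Slc2a1, at 13.16 and 13.13. The respiratory chain and ATP synthase gave 12 of 94 (12.8%), led by Cox6c, a subunit of cytochrome oxidase, at 13.11 and 13.09, and Atp5b, the beta subunit of ATP synthase, at 12.96 and 12.93. The mitochondrial carriers Slc25a4, Slc25a5 and Slc25a3, which move ADP, ATP and phosphate, were 3 of 6 in their group, between 11.84 and 12.11. The mitochondrial genes COX2, at 12.89 and 12.87, and ND3, at 12.30 and 12.30, formed a group of 2 that was added after their values were seen.

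The cytoskeleton gave 12 of 158 (7.6%). Actb, cytoplasmic actin, had log2 signals of 13.45 and 13.45, and Vim, the intermediate filament vimentin, of 13.45 and 13.43. Tuba1a, an alpha tubulin, had log2 signals of 13.13 and 13.11. The beaded filament of lens fibers was represented by Bfsp1, at 13.02 and 13.05, and Bfsp2, at 12.68 and 12.68. Lysosome and iron storage genes gave 6 of 32 (18.8%), led by Fth1, the ferritin heavy chain, at 13.12 and 13.13, and Cst3, the cysteine protease inhibitor cystatin C, at 13.05 and 13.06.

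Chaperones gave 6 of 95 (6.3%), led by Hspb1 and Hspa8, a constitutive heat shock protein with a mean of 13.01. Redox and detoxification genes gave 8 of 127 (6.3%), ubiquitin and proteasome genes 5 of 89, signalling genes 9 of 180, splicing and RNA binding genes 6 of 161, secretory genes 5 of 141, and capsule and matrix genes 3 of 77. Pumps, channels and solute carriers gave 10 of 532 (1.9%), close to the 1.5% of all ranked genes. The 10 include Lim2, placed there by its symbol although described above as a junctional membrane protein. Of 365 genes placed by symbol in the small noncoding RNA group, 2 were in the top 300, Rn7sk and Rpph1. The Y RNA gene Rny3, also in the top 300, was not caught by the symbol patterns and has no group. No group was assigned to 148 top genes, which were 0.8% of the 17653 ranked genes without one.

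**Figure D2:**
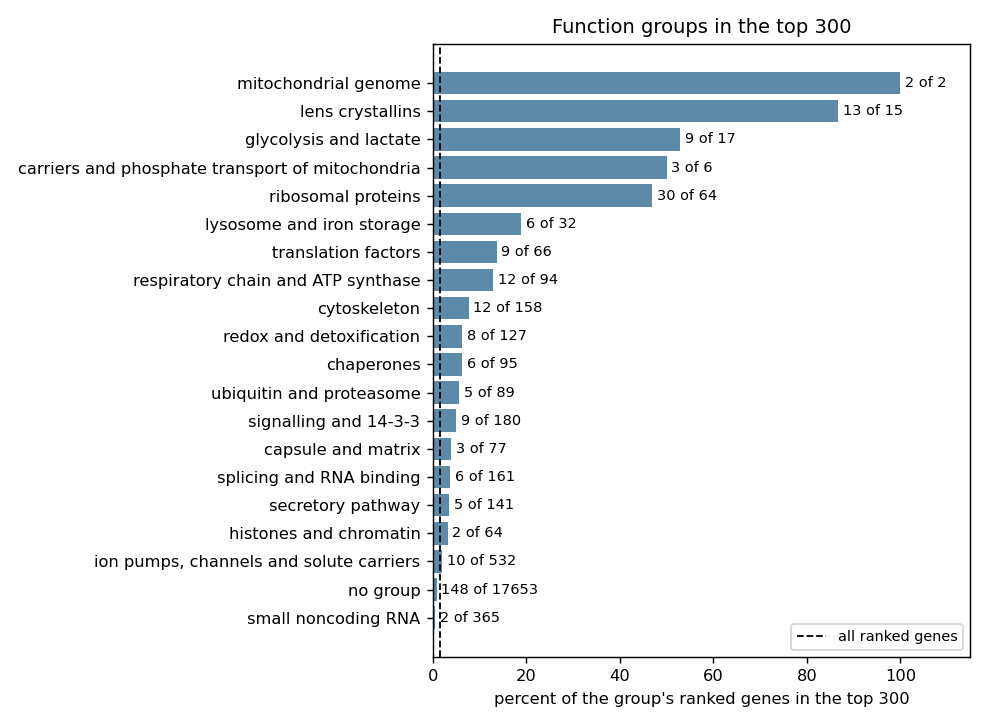
Percent of the ranked genes of each function group that were in the top 300 (x axis), with the counts beside each bar and all ranked genes as a dashed line. Crystallins (13 of 15), glycolysis (9 of 17) and ribosomal proteins (30 of 64) stand far to the right of the line, and pumps, channels and solute carriers (10 of 532) lie next to it.

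A background level was set from 1015 olfactory receptor genes, which are made in sensory neurons of the nose. Their median log2 signal was 4.97, and their 95th percentile, 6.43, was taken as background. Above it were 13721 of the 19938 ranked genes (68.8%). The 99th percentile of olfactory receptors was 7.06, but single receptors reached 8.67. A signal between 6.43 and 8.67 thus shows little by itself about whether a gene was expressed.

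All 21 lens transcription factors measured, of 22 listed, were above background, with a median of 10.33, and 20 were above the median of all genes. Maf, the bZIP factor of crystallin transcription, was the highest, at 12.43 and 12.44. Prox1, a homeodomain factor of fiber differentiation, had log2 signals of 11.99 and 11.97. These were the only members in the top 300. Meis2, a homeodomain partner of Pax6, had log2 signals of 11.45 and 11.40, and Tfap2a, a factor of the surface epithelium, of 11.20 and 11.16. Hsf4, the heat shock factor of the lens, had log2 signals of 10.92 and 10.98.

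Sox2 and Sox1, factors of lens induction and fiber growth, had log2 signals of 10.66 and 10.64 and of 9.77 and 9.76. Pitx3, a homeodomain factor needed for lens growth, had log2 signals of 10.43 and 10.47, Mab21l1 of 10.38 and 10.36, and Six3, a homeodomain factor of the early eye, of 9.58 and 9.54. The Notch targets Hey1 and Hes1 had log2 signals of 10.33 and 10.33 and of 8.99 and 8.96. Mafg, a small Maf partner, had log2 signals of 9.78 and 9.77, and Gata3, a zinc finger factor of fiber cells, of 9.44 and 9.44. The retinoid receptors Rara, Rxra and Rarb lay between 8.84 and 9.02, and Meis1 had log2 signals of 8.93 and 8.82. Pknox1, another homeodomain gene, was lowest at 7.40 and 7.46. The factors differed by at most 0.11 between the controls.

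All 22 growth factor receptors listed were above background, where 68.8% of all ranked genes were, with a median of 9.58. At the 99th percentile of olfactory receptors 19 were above it. None was in the top 300, which held 1.5% of all ranked genes. Receptors of fibroblast and platelet-derived growth factors were the 5 highest. Fgfr2 had log2 signals of 11.49 and 11.47, Fgfr1 of 11.18 and 11.17, and Fgfr3 of 11.08 and 11.05. Pdgfrb had log2 signals of 11.23 and 11.18, and Pdgfra of 11.06 and 10.97. The bone morphogenetic protein receptor Bmpr1a followed at 10.62 and 10.58, and the lowest were Erbb3, at 6.81 and 6.84, and Met, at 6.52 and 6.50, close to background.

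Of 15 adhesion and junction genes measured, 14 were above background and 4 were in the top 300. Over all ranked genes these shares were 68.8% and 1.5%. Gja3, a fiber connexin, had log2 signals of 12.44 and 12.45. Cdh2, N-cadherin, had log2 signals of 12.13 and 12.09. Ctnnb1, beta-catenin, had log2 signals of 11.97 and 11.96, and Itga6, the laminin-binding integrin alpha 6, of 11.92 and 11.87. Gja1, the epithelial connexin 43, had log2 signals of 11.70 and 11.70. Ocln, occludin of tight junctions, was at background with 5.94 and 5.88.

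All 18 genes of the lens capsule were above background, where 68.8% of all ranked genes were, with a median of 9.77. Sparc, a collagen-binding matrix protein, had log2 signals of 13.35 and 13.33, and Nid1, the laminin and collagen IV linker nidogen, of 12.88 and 12.85. Col4a2, a collagen IV chain, came next at 11.61 and 11.58. Npnt, an integrin ligand of basement membranes, had log2 signals of 11.53 and 11.47, Hspg2, perlecan, of 11.42 and 11.42, and Col4a1, the other chain of the common collagen IV trimer, of 11.37 and 11.35. The lowest was Nid2, at 7.30 and 7.28.

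Redox genes were high as a list: all 27 measured, of 29, were above background and above the median of all genes, with a median of 11.04, and 7 were in the top 300. Txn1, thioredoxin, had log2 signals of 13.12 and 13.05, and Gstm1, a glutathione transferase, of 12.93 and 12.92. Aldh1a1, an aldehyde dehydrogenase known as a soluble protein of the cornea and lens, had log2 signals of 12.85 and 12.84. Gstp1, at 12.04 and 12.06, and the superoxide dismutase Sod1, at 12.03 and 12.07, followed. Hmox1, heme oxygenase, had log2 signals of 11.97 and 12.09 and was among the genes of the top 300 that differed most between the controls. The lowest were the glutathione reductase Gsr, at 8.22 and 8.24, and extracellular Sod3, at 8.21 and 7.93.

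All 16 glucose and energy genes measured, of 22, were above background, with a median of 11.06, and 7 were in the top 300. Over all ranked genes 68.8% were above background and 1.5% in the top 300. Behind Slc2a1 stood Hk1, the first enzyme of glycolysis, at 12.83 and 12.80, Aldoa, at 12.65 and 12.64, and Ldha, lactate dehydrogenase A, at 12.65 and 12.62. Slc16a1, a lactate transporter, had a mean of 8.04, and Slc2a3, another glucose transporter, was the lowest at 6.76 and 6.76. Gapdh and Eno1 have no probe set of their own here and were not ranked.

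Of 17 transport genes measured, of 22, all were above background, with a median of 10.99, and 6 were in the top 300. The shares of all ranked genes were 68.8% and 1.5%. Beside Mip, Lim2 and Gja3, these included Atp1b3 and Atp1b1, beta subunits of the sodium pump, at 12.49 and 12.47 and at 11.91 and 11.89. Lim2 was on this list although it is a junctional membrane protein. Slc6a6, the taurine transporter, had a mean of 12.07. The lowest were Trpv4, a cation channel, at 9.03 and 9.01, and Clic4, at 8.99 and 9.01.

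Cell cycle genes were lower. All 17 measured were above background, where 68.8% of all ranked genes were, with a median of 8.36. None was in the top 300, which held 1.5% of all ranked genes. The highest were the G1 cyclins Ccnd1, at 11.64 and 11.64, and Ccnd2, at 11.39 and 11.40. Pcna, the replication clamp, had log2 signals of 10.68 and 10.60, and the cell cycle inhibitors Cdkn1c and Cdkn1b had 10.45 and 10.50, and 10.34 and 10.32. Bub1, a mitotic checkpoint kinase, at 7.19 and 7.06, and Mcm3, a replication helicase subunit, at 6.60 and 6.67, were the lowest.

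Immediate early genes, which rise within minutes of stress or handling, had a median of 7.46, the same as all ranked genes to 2 decimals. Above background were 18 of 19, against 68.8% of all ranked genes, and 10 were above the median of all genes. Dusp1, a phosphatase of MAP kinases, was the highest at 10.71 and 10.70. Gadd45b, Btg2, Jund, Jun and Klf6 lay between 9.47 and 9.82. Egr2, at 6.48 and 6.44, and Ier2, at 6.32 and 6.19, were the lowest.

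**Figure D3:**
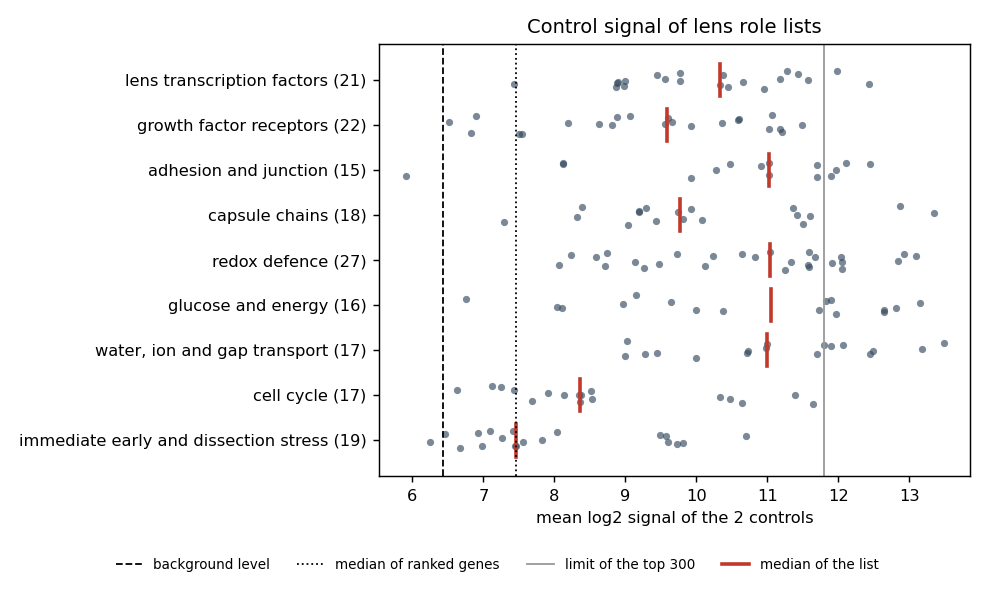
Mean log2 signal of the 2 controls (x axis) for the measured genes of 9 role lists (points, number in parentheses), with the median of each list in red. Redox, glucose, adhesion and transport genes have medians of 10.99 to 11.06, and cell cycle (8.36) and immediate early genes (7.46) lie nearest to the median of all genes, 7.46.

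Both lens lists had higher medians than the lists of the other eye tissues. Of 32 lens epithelium genes, 29 (90.6%) were above background, 7 were in the top 300, and the median was 11.02. These 7 are not all particular to the epithelium: alpha crystallins are made in fibers as well, and Prox1 is a factor of fiber differentiation. Pax6, Foxe3 and Cdh1 lay outside the top 300. Behind Cryaa and Cryab stood Sfrp1, a secreted Wnt antagonist, at 13.02 and 13.01, Nupr1, a nuclear stress protein, at 12.91 and 12.90, and Maf and Cdh2. The 2 lowest were Sfrp2, a relative of Sfrp1, at 5.63 and 5.73, and Abcb11, a bile salt transporter, at 5.23 and 5.31, both at background.

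All 34 lens fiber genes measured, of 37, were above background, 25 were in the top 300, and the median was 12.86, above that of the epithelium list. The lowest were Hopx, at 8.78 and 8.85, and Slc2a3. In bulk tissue, fiber cells among the sample and transcription of the same genes by epithelial cells cannot be told apart, and more cells of a type and more RNA per cell cannot be told apart either. Of the fiber genes, 22 were higher in control 2 and 6 in control 1, where of all ranked genes 9617 and 8974 were. Their control 1 minus control 2 had a median of -0.02, smaller in size than the median absolute difference of 0.04 over all genes. Here and for all lists and genes below, the direction between the controls is not a plain difference between control tissues, because in the deposited values it mirrors the direction between the UVB arrays. The part of fiber RNA in the levels was not tested.

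The photoreceptor list was the longest of the other tissues. Of 44 genes measured, of 48, 41 (93.2%) were above background, where 68.8% of all genes were, and their median was 7.80 against 7.46 for all genes. Gnb1, a G protein subunit made in most cells, was the only one in the top 300, at 12.77 and 12.79. Gnat1, rod transducin, had log2 signals of 11.71 and 11.34, Rbp3, a retinoid carrier between photoreceptors and pigment epithelium, of 10.05 and 9.72, and Pde6g, a rod phosphodiesterase subunit, of 9.99 and 9.69. Unc119 had log2 signals of 9.78 and 9.77, and Sag, rod arrestin, of 9.64 and 9.40. The lowest were the cone genes Cngb3, at 6.15 and 6.16, and Gngt2, at 5.88 and 5.84.

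Photoreceptor genes were higher in control 1 for 36 members and in control 2 for 7, with a median difference of 0.11, where over all ranked genes 8974 were higher in control 1 and 9617 in control 2. The part of retinal RNA in these signals was not tested. The lists of other retinal neurons had lower medians. The bipolar list had a median of 7.07, led by Prkca, a kinase of many tissues, at 9.25 and 9.30. The amacrine and horizontal list had a median of 6.60, led by the glycine transporter Slc6a9 at 10.39 and 10.14. The ganglion cell list had a median of 7.12, with 5 of 9 above background, led by Sncg, gamma synuclein, at 8.11 and 8.04.

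The Müller glia and astrocyte list had a median of 10.52, with all 12 above background and 4 in the top 300. Over all ranked genes the shares were 68.8% and 1.5%. Its highest members are made outside glia as well: Vim, Clu, the extracellular chaperone clusterin, at 12.85 and 12.85, Dkk3 at 12.69 and 12.67, and Apoe, apolipoprotein E, at 12.05 and 11.80. Glul, glutamine synthetase, had log2 signals of 11.32 and 11.19, and the potassium channel Kcnj10, the lowest, of 6.62 and 6.90. Of the 12 genes, 10 were higher in control 1 and 1 in control 2, where of all ranked genes 8974 and 9617 were.

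The pigment epithelium list had 12 of 14 above background with a median of 7.70, led by the retinol dehydrogenase Rdh10 at 9.60 and 9.60 and Ttr, transthyretin, at 9.14 and 9.09. The melanin list had 8 of 11 (72.7%) above background with a median of 7.33, led by Oca2, a melanosome membrane protein, at 10.20 and 10.23, while Tyr, tyrosinase, at 5.38 and 5.45, and Gpr143, at 5.39 and 5.38, were at background. The ciliary body and iris list had 15 of 16 above background with a median of 8.44. Its members in the top 300 were Acta2, smooth muscle actin, at 12.57 and 12.57, and Ptgds, a prostaglandin D synthase, at 12.11 and 12.10. Des, the muscle filament desmin, was at background with a mean of 6.11.

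Cornea and conjunctiva had 8 of 12 (66.7%) above background with a median of 6.98. Aldh3a1, an aldehyde dehydrogenase known as the main soluble protein of the cornea, stood alone at 11.64 and 11.64, the next being Krt4 at 7.21 and 7.23, and Lum, lumican of the corneal stroma, was lowest at 4.58 and 4.52. The blood vessel list had 7 of 12 (58.3%) above background with a median of 6.44, led by Egfl7 with a mean of 8.62. The leukocyte list had 13 of 18 (72.2%) above background with a median of 6.93, its highest member being Cd74, the invariant chain of antigen presentation, at 7.66 and 7.48. Of the 3 red cell genes measured, of 11, 1 was above background, Slc4a1, the red cell anion exchanger, at 6.88 and 6.90. The globins, the main red cell markers, are not among these 3, since they had shared probe sets only. The highest of those had log2 signals of 8.85 and 9.14 for Hba-a1 and Hba-a2 and of 8.13 and 8.37 for the beta globins, above background. The shares of the cornea, melanin and leukocyte lists lay near the 68.8% of all genes, and those of the blood vessel and ganglion cell lists below it. Of the top 300, 32 were on a lens list and 7 on the list of another eye tissue. The lens lists share no gene with the other tissue lists, so no gene could be on both kinds.

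**Figure D4:**
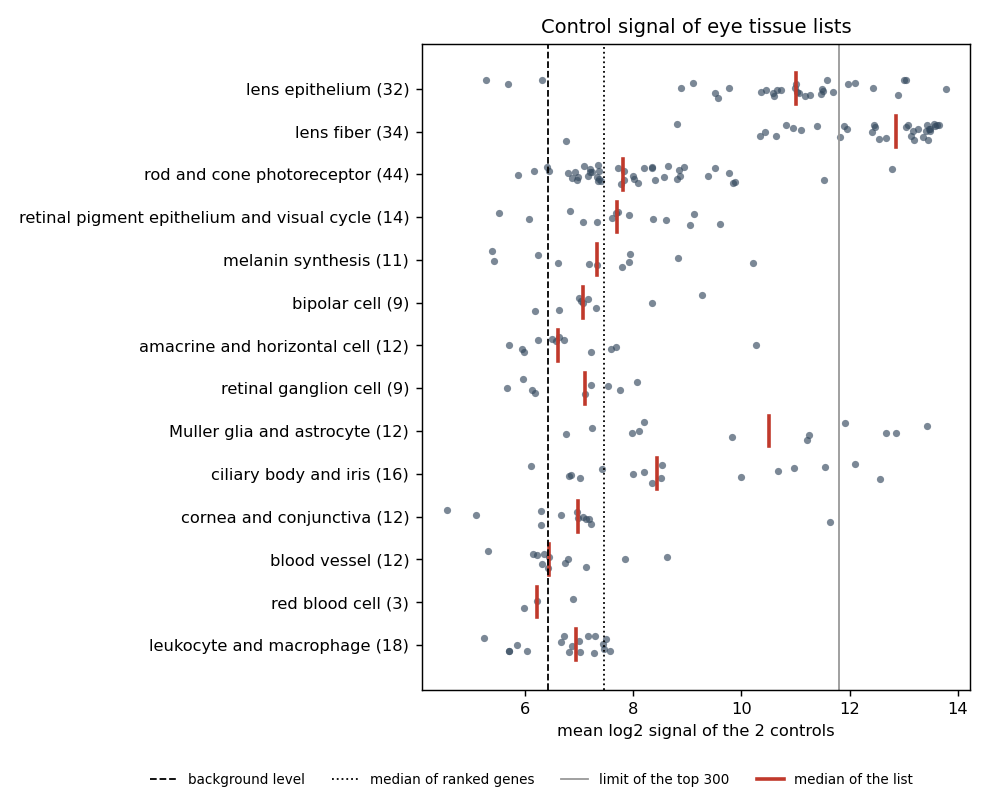
Mean log2 signal of the 2 controls (x axis) for the measured genes of 14 tissue lists (points, number in parentheses), with list medians in red, the background level of 6.43 dashed, the median of all genes dotted and the limit of the top 300 in grey. The fiber (12.86) and epithelium (11.02) medians lie to the right, that of Müller glia (10.52) next, and all other medians between 6.21 (red cell genes, without the globins) and 8.44.

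The 2 controls were close to each other. Control 1 had a median of 7.19 and control 2 of 7.20 over all probe sets. Over the 19938 genes the absolute difference between them had a median of 0.04, a 95th percentile of 0.16 and a maximum of 0.89, and 17114 genes (85.8%) were within 0.1. Of the 19938, 6 (0.0301%) were more than 1.5-fold apart, and 3 of these were above background. The SD of the difference was 0.065 for genes above background, 0.101 for the others and 0.036 for the top 300. Pearson's r over genes was 0.9992 and Spearman's rho 0.9993, given as a description, since genes of an array share its RNA and processing. This spread is too small as a measure of experiment-to-experiment error: the sum of control and UVB signal was equal in both experiments within 0.02 for all 28944 probe sets, so the means of the experiments had been set equal before deposit, and the difference between the controls mirrored that between the UVB arrays (r = -0.9977 over probe sets). Differences between control tissues and between UVB tissues cannot be told apart in the directions given here for photoreceptor, Müller glia, fiber, keratin and other genes.

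Of the top 300, 294 were within 0.1, and each control's own 300 highest genes shared 293 members with the other's. The lowest rank of a top gene in either control was 330. Apoe had the largest difference among them, 0.25, followed by Penk, the enkephalin precursor, with log2 signals of 12.19 and 11.99, and Slc6a6. Of the top 300, 163 were higher in control 1, 100 in control 2 and 37 equal, where of all ranked genes 8974 were higher in control 1 and 9617 in control 2. The 300 genes of highest mean on the UVB arrays shared 289 with them.

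The genes above background that differed most did so in both directions. Keratin genes of stratified epithelium were higher in control 2, Krt6b with log2 signals of 6.50 and 7.20, and Krt5 with 6.63 and 7.30. Plet1, at 6.96 and 7.44, and Igfl3, at 7.28 and 7.72, had the same direction. Of the 12 genes of the cornea and conjunctiva list, 9 were higher in control 2 and 1 in control 1, and control 1 minus control 2 had a median of -0.21. Of all ranked genes, 9617 were higher in control 2 and 8974 in control 1. Lcn2, an iron-scavenging lipocalin, was higher in control 1, with log2 signals of 8.17 and 7.54, as were the protease inhibitor Serpina3n, at 9.52 and 8.96, and the cytokine Il33, at 8.70 and 8.24. Gpnmb, at 8.30 and 7.76, Rhoj, at 8.99 and 8.56, and Neurod1, at 7.70 and 7.28, were also higher in control 1. None of these 10 genes was in the top 300.

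**Figure D5:**
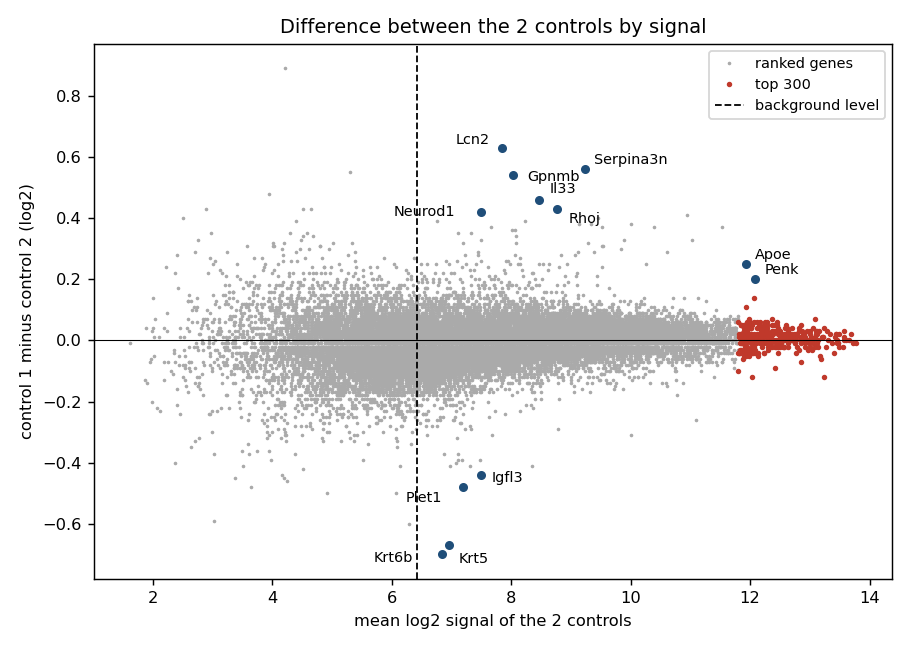
Control 1 minus control 2 (y axis, log2) against the mean log2 signal of the 2 controls (x axis) for all ranked genes, with the top 300 in red, the background level dashed and the genes of largest difference named. The top 300 lie close to 0, with Apoe at 0.25 and Penk at 0.20 farthest out, and Krt6b and Krt5 lie lowest among genes above background.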

How the data were processed

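The authors hybridised lens epithelial RNA to Affymetrix gene arrays and deposited log2 signals rounded to 2 decimals, 28944 per array. The labels name Affymetrix Expression Console. Its version and settings: not given in the sources used here. Although the methods speak of a human array, the platform annotation pairs the probe sets with mouse symbols. Per the annotation 21789 probe sets had 1 symbol, 1621 several and 5534 none, and 999 genes had several probe sets. Signals were averaged over the 2 controls and ranked with pandas 2.3.3 in Python 3.11.15, and the ranking was checked on simulated data. With a single group, no test was run. The number of arrays limits the precision.

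Members, lists and function groups were chosen with earlier results of these data known. Of 413 list genes, 379 were measured. Named genes were taken from the 5 markers, the 40 highest genes, those at the limit of the top 300, the 6 highest and 2 lowest of each list, the 4 highest of each function group, all crystallins and lens transcription factors, and the 10 genes above background that differed most between controls. Not all of these are printed. Other examples were chosen after their values were seen. Alternatives were single controls, averaged probe sets, shared probe sets, other scalings, other background levels and other gene filters.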

Additional observations from a re-analysis of the deposited data

How the results depend on the processing

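Of 363 values computed under 11 alternative settings, 325 stayed within 1.5 times their value in the report. With control 2 alone 297 of the top 300 were shared, and with control 1 alone 296. Averaging the probe sets of a gene kept 275, and quantile normalization and median centring kept 300. Median centring shifts each array by a constant and cannot reorder the means. Quantile normalization had little to change, as the control medians were already 7.19 and 7.20. The experiment means had been set equal before deposit, so the single-control overlaps say little about experiment-to-experiment error. All these values are among the 325. Adding the probe sets with several symbols changed the ranking most of these settings: 134 of the top 300 were shared, and the counts became 131 ribosomal proteins, 31 glycolysis genes, 7 small noncoding RNA genes, 5 translation factors, 0 mitochondrial carriers, 3 chaperones, 3 ubiquitin and proteasome genes, 3 redox genes, 6 pumps, channels and carriers, 4 histones, 2 splicing genes, 0 secretory genes, 3 signalling genes and 56 without a group. These probe sets were added as 1 feature each, and many repeat the same gene. Averaging probe sets left 1 mitochondrial genome gene. Another setting left out the small noncoding RNA and mitochondrial genome groups and genes with predicted symbols. Its counts of 0 for both groups follow from the filter itself. The noncoding RNA genes Rny3, Malat1 and Gas5 were in neither group and stayed in.

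The background level decided the counts of the low lists. At the 99th percentile of olfactory receptors, 7.06, the genes above it were 5 bipolar, 4 amacrine and horizontal, 5 cornea, 3 blood vessel, 0 red cell and 7 leukocyte genes. At the 95th percentile of 163 vomeronasal receptors, 5.66, they were 8 ganglion cell, 11 blood vessel and 3 red cell genes. At the median of all genes, 7.46, they were 24 photoreceptor, 5 melanin, 2 bipolar, 3 amacrine and horizontal, 3 ganglion cell, 1 cornea, 2 blood vessel, 0 red cell, 3 leukocyte and 10 immediate early genes. Among genes above background only, 3 were over 1.5-fold apart between the controls. No paired analysis was possible because a single group was described and no result came from a test. Signals near background limit statements on the lists of other tissues, and signals near the upper end of the values limit the order of the first genes.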

Other observations

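Some probe sets outside the ranking named several genes and had high signals. The highest of all, annotated to Cdk8 and the 28S ribosomal RNA gene Rn28s1, had log2 signals of 13.94 and 13.94 in controls 1 and 2. Of the unranked probe sets at or above the limit of the top 300, 25 named Gapdh, the glycolytic enzyme, together with predicted genes, and the highest had log2 signals of 13.64 and 13.65.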
